A study of Mus musculus with 12 samples.

Results

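The 10 genes examined encode transcription factors that act downstream of the T cell receptor: the nuclear receptors Nr4a1, Nr4a2 and Nr4a3, the zinc finger factors Egr1, Egr2 and Egr3, the HMG-box factors Tox and Tox2, the calcium-responsive factor Nfatc1 and Ikzf2, which encodes Helios. They were chosen by symbol through GENCODE release M21, and all 10 were found among the 55487 gene identifiers of both count tables. RNA was sequenced from mouse OT-1 CD8+ T cells, which carry a transgenic T cell receptor for an ovalbumin peptide, in 12 samples forming 4 groups of 3. The Female and Male groups were spleen cells of each sex, stimulated for 3 days with beads against CD3 and CD28 plus IL2. The WT and KD groups came from male cells of another batch that were electroporated, then kept in culture for 3 days. In KD the electroporation delivered Cas9 and guide RNA against Kdm5d, a Y-linked histone demethylase gene, and in WT guide RNA without Cas9. No sample had Cas9 without that guide RNA, so effects of Cas9 and of reduced Kdm5d cannot be told apart in any KD difference. Mouse age, the number of mice and any pooling were not given in the sources used here, and p-values may then measure only technical spread between samples.

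As background, T cell receptor signalling raises calcium, which activates the phosphatase calcineurin and moves NFAT factors into the nucleus. In parallel the RAS to ERK kinase branch drives serum response factor, which induces Egr1 among other genes. The NR4A genes are immediate early genes as well, induced through calcium- and cAMP-responsive factors. EGR2, EGR3, NR4A and TOX factors are known to restrain T cells after sustained or unbalanced stimulation, and TOX and NR4A factors are associated with exhausted CD8 T cells.

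Total counts per sample were between 78748647 and 110803318. Kdm5d was at 21.4, 21.8 and 22.9 counts per 1000000 counts of a library (CPM) in the KD samples. It was at 48.4, 51.9 and 52.4 CPM in the WT samples, and the knockdown left 43.3% of the WT mean. Male samples held 49.5 to 52.2 CPM of Kdm5d, and Female samples held 0 to 2 counts. All 8 genes listed for CD8 T cell identity were at or above 1 CPM in each group. They summed to 2648 to 3097 CPM per sample, but most are CD3 and T cell receptor genes that other T cells express too. Cd8a averaged 537 CPM in Female, 499 in Male, 621 in WT and 578 in KD. Cd8b1 averaged 277, 245, 247 and 239 CPM in the same order. Myeloid markers summed to at most 4.70 CPM in any sample and erythroid markers to at most 1.37 CPM, and Cd4 had at most 19 counts in a library. Of the B cell markers, Ighm was at 606 CPM in Female, 310 in Male, 256 in WT and 290 in KD. The 5 NK and gamma delta T cell markers, mostly Trdc, summed to 124 to 187 CPM per sample. Whether other cells took part in any result below was not tested.

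The starts of the NR4A genes and of Egr2 are shown because Nr4a3 was called lower and Egr2 higher both in Male and in KD below. The NR4A relatives of Nr4a3 stand beside it. Tox was called lower and Egr1 higher in both as well, but no RefSeq start of either was available. The sequences are RefSeq's for GRCm38.p6, read 5′ to 3′ on the gene's strand, and end just before the start site. That of Nr4a3 was stopped at its first GENCODE exon, and for Egr2 the window belongs to the RefSeq start, of 5, nearest its principal GENCODE transcript. Capitals mark 3 motifs searched on both strands: TGACG, the core of the cAMP response element; GCGNGGGCG, an EGR site; and the CArG box, the site of serum response factor. The windows are chr15:101266596-101266845 on the plus strand, chr2:57124004-57124253 on the minus strand, chr4:48045055-48045152 and chr10:67537619-67537868 on the plus strand.
Nr4a1: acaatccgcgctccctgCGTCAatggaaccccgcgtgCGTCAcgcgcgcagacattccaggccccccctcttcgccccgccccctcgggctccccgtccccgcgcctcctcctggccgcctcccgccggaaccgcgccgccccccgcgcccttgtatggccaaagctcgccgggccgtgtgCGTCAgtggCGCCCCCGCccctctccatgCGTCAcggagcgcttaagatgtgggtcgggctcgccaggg
Nr4a2: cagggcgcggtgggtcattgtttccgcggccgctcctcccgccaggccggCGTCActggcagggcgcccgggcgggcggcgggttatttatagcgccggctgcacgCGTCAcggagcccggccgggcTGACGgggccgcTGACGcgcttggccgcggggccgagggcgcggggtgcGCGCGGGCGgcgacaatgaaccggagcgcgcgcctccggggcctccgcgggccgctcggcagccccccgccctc
Nr4a3: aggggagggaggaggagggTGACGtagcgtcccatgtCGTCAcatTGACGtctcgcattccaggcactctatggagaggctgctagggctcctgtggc
Egr2: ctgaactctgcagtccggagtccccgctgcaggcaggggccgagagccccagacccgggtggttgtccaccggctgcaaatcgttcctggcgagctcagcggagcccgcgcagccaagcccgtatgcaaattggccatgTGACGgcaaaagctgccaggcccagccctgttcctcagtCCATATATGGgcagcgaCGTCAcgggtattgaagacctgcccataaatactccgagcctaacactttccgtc

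In the 250 bases before the start site, Nr4a1, Nr4a2 and Nr4a3 each held 4 copies of the TGACG core, and Egr2 held 2. Of the 4 in Nr4a3, 3 lie in the printed stretch. Of 32817 RefSeq starts with windows of that length, 17.7% held at least 1 copy, 3.9% at least 2 and 0.137% at least 4. The EGR site was found once in Nr4a1 and once in Nr4a2, and 4.7% of all windows held it. The CArG box was found in Egr2, and 1.47% of all windows held it. The full element TGACGTCA, held by 1.55% of windows, and the AP-1 motif TGANTCA, held by 6.75%, were in none of the 4, nor was AAAGGTCA, the NR4A monomer site, held by 1.34%. The NFAT core GGAAA was found once each in Nr4a2 and Egr2, where 55.6% of all windows held it. In base composition, the Nr4a2 window was 80.0% G or C and the Egr2 window 61.6%. A match is a description of letters and not of binding. Of the 10 genes, 5 had an entry in the RefSeq table used.

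The first question was how strongly each factor was expressed after 3 days. Levels are compared between genes as CPM per kilobase of annotated exon. Nfatc1 had the highest level in each group, at 20.9 CPM per kb in Female, 19.4 in Male, 23.5 in WT and 24.5 in KD. Ikzf2 came next in Female at 12.7 CPM per kb and in Male at 4.17. Below it in Female, the ranges of Nr4a3, Nr4a1 and Tox overlapped from one to the next, with means of 3.71, 3.69 and 3.48 CPM per kb. Nr4a2 and Egr1 followed at 1.83 and 1.45. Egr2 and Egr3, at 0.27 and 0.26 CPM per kb, had overlapping ranges as well. Male had the same order except that Nr4a1, at 3.75 CPM per kb, stood above Nr4a3 at 2.43, and Egr1, at 1.86, above Nr4a2 at 0.99.

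**Figure D1:**
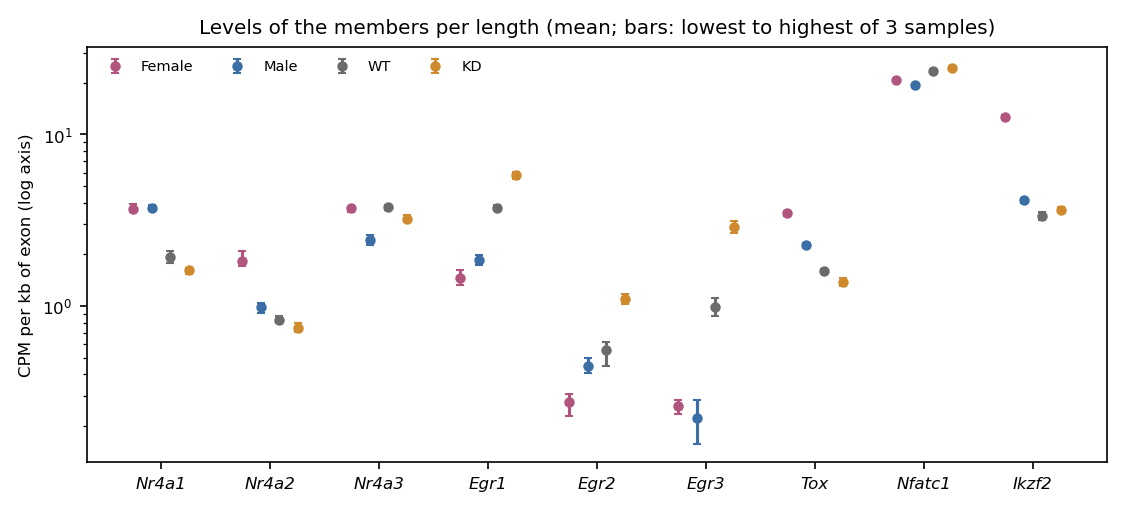
Mean level of each detected factor in CPM per kilobase of exon on a log axis, with bars from the lowest to the highest of 3 samples in the Female, Male, WT and KD groups. Nfatc1 is the highest in each group, and of the factors drawn Egr2 and Egr3 are the lowest in Female at 0.27 and 0.26.

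In the electroporated cells the order was different. In WT, Nr4a3 and Egr1 came after Nfatc1 with overlapping ranges and means of 3.80 and 3.72 CPM per kb, ahead of Ikzf2 at 3.33. In KD, Egr1 at 5.77 CPM per kb came after Nfatc1, followed by Ikzf2 at 3.64, and the ranges of Nr4a3 and Egr3 overlapped at 3.22 and 2.90. The 2 tables hold separate batches of cells, so a difference in level between Male and WT cannot be told apart from batch and electroporation. Tox2, a close relative of Tox, was near absent: it had 0 to 14 counts in any library and 0 counts in 6 of the 12 libraries, where the limit of 3 counts that a 0 allows is 0.027 to 0.038 CPM. It did not pass the low-count filter in either comparison and was not tested, which leaves 9 genes tested in each.

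Sex was compared first. Between Male and Female, 7 of the 9 genes were called, of which 2 were higher in Male and 5 lower, at a Benjamini-Hochberg adjusted p under 0.05 with edgeR's quasi-likelihood test. Of all 20208 genes tested, 49.8% were called, with 23.5% higher and 26.3% lower in Male. In a refit limited to genes whose log2 CPM averaged 1 or more, 8849 of 12367 were called. Male and Female samples were fully separated for 7 of the 9 genes, against 58.3% of all genes. The median log2 fold change (Male over Female) of the 9 was -0.23, and that of all genes was 0.011. Only Ikzf2 also had a log2 fold change of 1 or more in size, as 7.28% of all genes did. In RNA from bulk cells, fewer cells expressing a gene and less RNA per cell cannot be told apart.

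Helios showed the largest sex difference of the 9. Ikzf2 (ENSMUSG00000025997, chromosome 1, 69531214 to 69687245, GRCm38) encodes an Ikaros-family factor known from regulatory T cells and from CD8 T cells. It was at 142.7, 150.5 and 148.4 CPM in the Female samples and at 49.8, 46.6 and 48.8 CPM in the Male samples. The 3 Female samples lay far above the 3 Male samples, and the Female mean was 3.04-fold higher. The log2 fold change was -1.60 with an SE of 0.033 and an adjusted p of 1.45e-10 in edgeR. Of the 4 CD4 and regulatory T cell markers, 3 were lower in Male and 1 was higher. The higher one was the regulatory T cell factor Foxp3, at 2.03, 3.00 and 3.43 CPM in Female and 5.21, 3.98 and 3.96 CPM in Male (log2 fold change 0.63, edgeR adjusted p 0.021). Cd4 was at 14 to 19 counts per library in Female and 0 in Male. Zbtb7b, which encodes the CD4 lineage factor ThPOK, averaged 85.1 CPM in Female and 51.6 in Male (-0.72), and Ikzf4 39.0 and 34.5 CPM (-0.18). The 4 markers summed to 126 to 128 CPM in Female and 86.7 to 92.7 in Male. Their part in the Ikzf2 difference was not tested. The noncoding genes Gm28112, Gm29112 and Gm29114, the last of them antisense with 144 exonic bases shared, overlap Ikzf2 and were at most at 1.74 CPM in any sample.

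Of the nuclear receptors, Nr4a2 and Nr4a3 were lower in Male and Nr4a1 did not pass the test. Nr4a3 (ENSMUSG00000028341, chromosome 4, 48045153 to 48086447) was at 22.6, 22.7 and 21.2 CPM in Female and at 15.6, 14.4 and 13.6 CPM in Male. Its log2 fold change was -0.61 with an SE of 0.060 and an adjusted p of 1.13e-05 in edgeR. Nr4a2 (ENSMUSG00000026826, chromosome 2, 57106830 to 57124003) was at 8.46, 6.92 and 6.90 CPM in Female and at 4.11, 3.68 and 4.22 CPM in Male, with a log2 fold change of -0.89, an SE of 0.11 and an adjusted p of 8.14e-05 in edgeR. For both genes each Female sample was above each Male sample. Nr4a1 (ENSMUSG00000023034, chromosome 15, 101254269 to 101274795), which encodes Nur77, the family member used to report T cell receptor signal strength, was at 12.4, 13.9 and 12.5 CPM in Female and 13.6, 12.8 and 13.1 CPM in Male. These values overlapped, and the log2 fold change was 0.023 with a 95% interval from -0.12 to 0.17 (edgeR adjusted p 0.801), taking either sign when 1 sample was left out.

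Tox and Nfatc1 were lower in Male as well. Tox (ENSMUSG00000041272, chromosome 4, 6686353 to 6991557), a regulator of chromatin in exhausted T cells, was at 25.6, 26.7 and 27.2 CPM in Female and 17.8, 16.9 and 17.4 CPM in Male. The groups were well separated, with a log2 fold change of -0.61, an SE of 0.044 and an adjusted p of 9.93e-07 in edgeR. The antisense gene Gm11802 shares 260 exonic bases with Tox and had at most 13 counts in any library. Nfatc1 (ENSMUSG00000033016, chromosome 18, 80606205 to 80713071), an NFAT factor induced by its own activity, was at 154.6, 157.0 and 155.7 CPM in Female and at 143.4, 146.4 and 145.8 CPM in Male. The samples did not overlap, yet the step was small, with a log2 fold change of -0.10, an SE of 0.021 and an adjusted p of 0.0026 in edgeR. Nfatc1 was called in each of 16 refits, with log2 fold changes from -0.12 to -0.073.

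EGR genes were the ones higher in Male. Egr1 (ENSMUSG00000038418, chromosome 18, 34859823 to 34864984), an immediate early gene of ERK signalling, was at 5.92, 7.25 and 6.36 CPM in Female and 8.35, 8.90 and 7.81 CPM in Male. The highest Female sample lay just below the lowest Male sample. The log2 fold change was 0.36 with an SE of 0.098 and an adjusted p of 0.012 in edgeR, and without Male replicate 2 it was 0.31 (edgeR adjusted p 0.058), no longer past the threshold. Egr2 (ENSMUSG00000037868, chromosome 10, 67535475 to 67542188), which drives genes of T cell anergy, was at 0.98, 0.78 and 1.04 CPM in Female and 1.38, 1.51 and 1.68 CPM in Male, from 73 to 149 counts per library. All Male samples were above all Female samples, with a log2 fold change of 0.71, an SE of 0.19 and an adjusted p of 0.010 in edgeR. Egr3 (ENSMUSG00000033730, chromosome 14, 70077203 to 70082614), its partner in anergy, was at 1.04, 1.25 and 1.15 CPM in Female and 0.70, 1.25 and 0.99 CPM in Male. These samples overlapped, and at 65 to 118 counts per library the 95% interval of the log2 fold change ran from -0.76 to 0.30 (edgeR adjusted p 0.465).

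**Figure D2:**
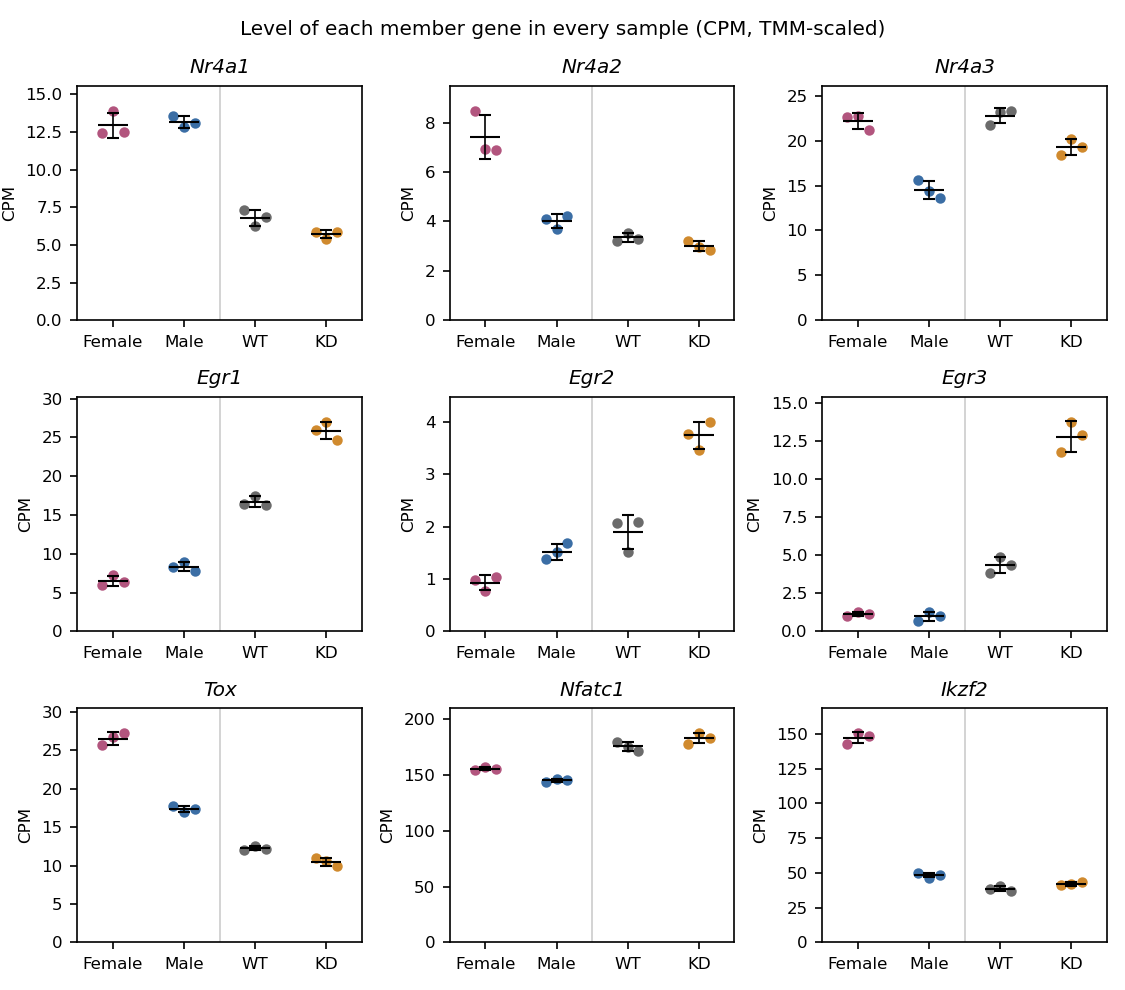
Level of 9 factors in every sample in CPM, with 3 points per group and the mean ± SD in black, the Female and Male table left of the grey line and the WT and KD table right of it. Ikzf2 is at 142.7 to 150.5 CPM in Female and 46.6 to 49.8 in Male, and Egr3 is at 11.8 to 13.7 CPM in KD and 3.84 to 4.90 in WT.

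The knockdown was compared next, within the electroporated male cells. Of the 9 genes, 5 were called between KD and WT, 3 higher and 2 lower in KD. Of all 20413 genes tested, 35.1% were called, with 16.8% higher and 18.4% lower in KD. In a refit limited to genes whose log2 CPM averaged 1 or more, 6680 of 12298 were called. The 3 genes called higher were Egr1, Egr2 and Egr3, and the 2 called lower were Nr4a3 and Tox. The groups did not overlap for 8 of the 9 genes, against 46.8% of all genes tested. The median log2 fold change (KD over WT) of the 9 was 0.060, beside 0.012 over all genes. Only Egr3 also had a log2 fold change of 1 or more in size, as 3.96% of all genes did.

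Egr3 changed most. It was at 3.84, 4.90 and 4.35 CPM in WT and at 11.8, 13.7 and 12.9 CPM in KD. Each KD sample was above each WT sample, and the KD mean was 2.93-fold higher, with a log2 fold change of 1.55, an SE of 0.10 and an adjusted p of 1.34e-06 in edgeR. Egr2 was at 2.07, 1.52 and 2.09 CPM in WT and at 3.76, 3.47 and 4.00 CPM in KD. The groups were again apart, with a 1.98-fold higher mean in KD and a log2 fold change of 0.98 with an SE of 0.15 and an adjusted p of 0.00061 in edgeR. Egr1 was at 16.4, 17.5 and 16.2 CPM in WT and rose to 25.9, 27.0 and 24.7 CPM in KD. Its log2 fold change was 0.63 with an SE of 0.050 and an adjusted p of 5.26e-06 in edgeR. All 3 EGR genes kept their direction and their call in each refit, with log2 fold changes between 0.60 and 0.67 for Egr1, 0.85 and 1.06 for Egr2, and 1.47 and 1.65 for Egr3.

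Of the NR4A genes only Nr4a3 was called, in the opposite direction and by a smaller amount. Nr4a3 was at 21.8, 23.2 and 23.3 CPM in WT and fell to 18.4, 20.2 and 19.3 CPM in KD, with no overlap (log2 fold change -0.24, SE 0.050, edgeR adjusted p 0.0040). Nr4a1 was at 7.30, 6.27 and 6.84 CPM in WT and at 5.88, 5.40 and 5.83 CPM in KD. Those groups did not overlap either, but the adjusted p lay just above the threshold of 0.05 (log2 fold change -0.26, SE 0.090, edgeR adjusted p 0.0508). Nr4a1 was called in 3 of 10 other settings and without WT replicate 2, where the log2 fold change was -0.31 (edgeR adjusted p 0.040). Nr4a2 was at 3.22, 3.55 and 3.30 CPM in WT and at 3.21, 2.96 and 2.86 CPM in KD. The closest samples of Nr4a2 nearly touched, and the 95% interval of its log2 fold change ran from -0.41 to 0.10 (edgeR adjusted p 0.345).

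Tox was also lower in KD. It was at 12.1, 12.5 and 12.2 CPM in WT and at 11.0, 10.6 and 9.95 CPM in KD, with a log2 fold change of -0.22, an SE of 0.061 and an adjusted p of 0.017 in edgeR. The call on Tox was lost without WT replicate 2 (-0.21, edgeR adjusted p 0.065) and without KD replicate 3 (-0.18, edgeR adjusted p 0.068). Ikzf2 was at 38.2, 40.8 and 37.0 CPM in WT and at 41.2, 41.8 and 43.7 CPM in KD. Its groups were apart by a narrow gap, the log2 fold change was 0.13 and the edgeR adjusted p of 0.0505 was just above the threshold. Ikzf2 was called in 6 of 10 other settings, and without WT replicate 2 its log2 fold change was 0.17 (edgeR adjusted p 0.018). Foxp3 was lower in KD, at 1.24, 1.69 and 1.45 CPM against 2.63, 2.94 and 2.39 CPM in WT. Nfatc1 was at 179.7, 175.5 and 171.8 CPM in WT and at 178.3, 187.6 and 183.4 CPM in KD. These values overlapped, and the log2 fold change of 0.060, at an adjusted p of 0.117 in edgeR, passed the threshold in 2 of 10 other settings.

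**Figure D3:**
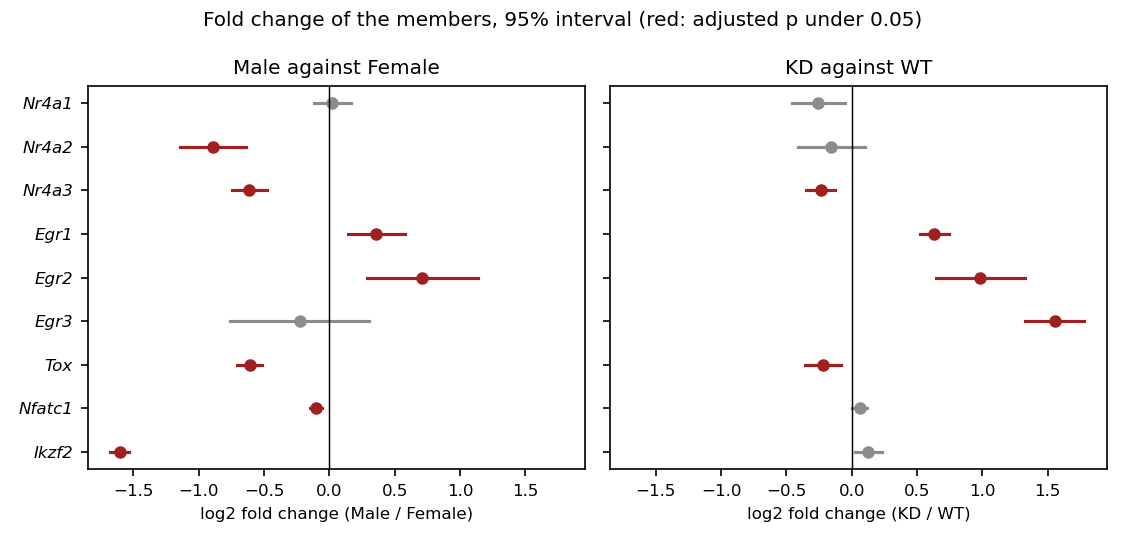
Log2 fold change of 9 factors with its 95% interval, Male over Female on the left and KD over WT on the right, in red where the edgeR adjusted p was under 0.05. Ikzf2 stands lowest on the left at -1.60, and Egr1, Egr2 and Egr3 stand highest on the right at 0.63, 0.98 and 1.55.

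Set side by side, the comparisons share no samples. Kdm5d itself was higher in Male than in Female, at means of 50.9 and 0.0071 CPM. It was lower in KD than in WT, at 22.0 and 50.9 CPM. A factor with the same direction in both comparisons therefore had opposite relations to the level of Kdm5d. Egr1 and Egr2 were called higher both in Male and in KD, and Nr4a3 and Tox were called lower both in Male and in KD. None of the 9 genes was called in opposite directions. Of all 19529 genes tested in both comparisons, 11.5% were called in the same direction in both and 14.1% in opposite directions. Nr4a2, Nfatc1 and Ikzf2 were called lower in Male and were not called between KD and WT, which gave log2 fold changes of -0.16, 0.060 and 0.13. Egr3 was called higher in KD and was not called between the sexes, with a log2 fold change of -0.23. No difference between the comparisons was tested. Among replicates of a group, the deviations of the 9 genes from their group means showed Pearson correlations between -0.76 and 0.47 over 36 pairs of genes and 12 samples, with a median of -0.049. The lowest, an extreme among the 36 pairs, was between Egr1 and Egr2, and Egr2 had only 73 to 386 counts per library. Deviations from the mean of 3 samples are not independent of each other, so these correlations rest on fewer free values than 12.

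Other genes of the pathway were examined by lists written by hand, starting with relatives of the same families. Of 11 relatives, 10 were tested between Male and Female, with 3 called higher and 6 lower in Male, and 9 between KD and WT, with 0 higher and 7 lower in KD. Their medians were -0.28 and -0.16 on the log2 scale. Nfatc3, an NFAT factor that is present before stimulation, averaged 452 CPM in Female and 315 in Male (log2 fold change -0.52) and 305 CPM in WT and 252 in KD (-0.28). Nfatc2 was higher in Male, with a log2 fold change of 0.41, and lower in KD, with -0.15. Aiolos, encoded by Ikzf3, was lower in both, with -0.33 in Male and -0.68 in KD. Egr4, named after its values were seen, averaged at most 0.052 CPM in a group and was tested in neither comparison.

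The calcium and calcineurin genes were mostly lower in Male. Of 21 tested, 4 were called higher and 14 lower in Male, with a median of -0.17, and 4 higher and 11 lower in KD, with a median of -0.11. Rcan1, an inhibitor of calcineurin that NFAT itself induces, averaged 17.3 CPM in Female and 7.72 in Male (log2 fold change -1.16, edgeR adjusted p 9.29e-08). In KD it was higher than in WT, at 7.93 against 6.53 CPM (0.28, edgeR adjusted p 0.038). Orai2, a subunit of the calcium release-activated channel, was lower in Male, with a log2 fold change of -1.05, and in KD, with -0.11. In KD, Ppp3cc, a catalytic subunit of calcineurin, had a log2 fold change of -0.47, and the inositol trisphosphate receptor gene Itpr3 had -0.39. Ppp3cc and Itpr3 were lower in Male as well, with -0.32 and -0.24.

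The RAS to ERK branch was divided into its signalling genes and its feedback inhibitors. Of 17 RAS to ERK genes, 4 were called higher and 9 lower in Male, and 3 higher and 7 lower in KD, with a median of -0.08 in each comparison. Mapk3, which encodes ERK1, was lower both in Male and in KD, with a log2 fold change of -0.48 in each. Map2k1, which encodes MEK1, was higher in Male with 0.55 and lower in KD with -0.081. Of 8 feedback inhibitors that ERK induces, 4 were called higher and 3 lower in Male, with a median of 0.32. In KD, 1 was called higher and 6 lower, with a median of -0.52. Dusp6, a phosphatase that removes ERK phosphorylation, averaged 44.8 CPM in Female and 71.8 in Male (0.68) and 114 CPM in WT and 69.0 in KD (-0.73). Spry4 averaged 0.71 CPM in Female and 5.20 in Male (2.86) and 5.26 CPM in WT and 2.40 in KD (-1.13). Spry2 went the other way in both, with -0.95 in Male and 1.06 in KD. Dusp5 had a log2 fold change of -0.67 in KD and of -0.14 in Male.

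**Figure D4:**
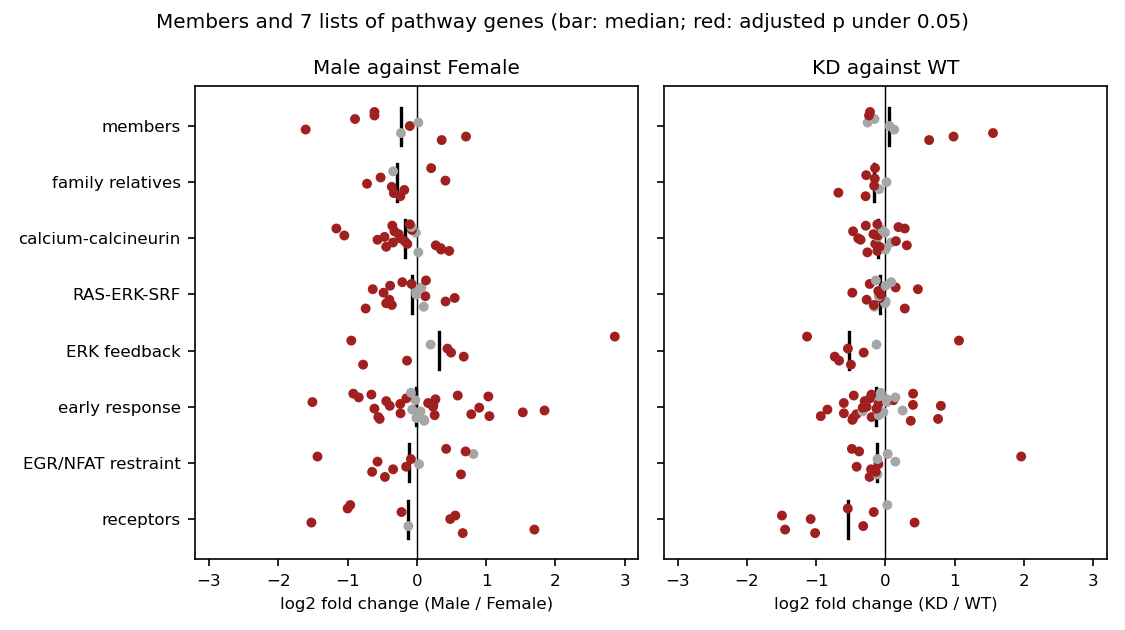
Log2 fold changes of the 9 tested factors and of the tested genes in 7 lists, Male over Female on the left and KD over WT on the right, with 1 point per gene, a bar at the list median and red for an edgeR adjusted p under 0.05. Nfatc4, at 0.23 CPM or less in each group, is left out of the points; the ERK feedback median is 0.32 on the left and -0.52 on the right.

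Other early response genes were called in both directions. Of 31 tested, 12 were called higher and 12 lower in Male, with a median of -0.0063, and 6 higher and 16 lower in KD, with a median of -0.13. Cd69, a surface marker of recent stimulation, averaged 80.9 CPM in Female and 167 in Male (log2 fold change 1.05) and 133 CPM in WT and 69.6 in KD (-0.93). Klf10 was lower in Male, with a log2 fold change of -1.51. In KD the AP-1 genes Fosl2 and Jund fell, with log2 fold changes of -0.84 and -0.60, and Jun rose, with 0.40. Jund and Jun were higher in Male, with 0.16 and 0.24, and Fosl2 was not called between the sexes (-0.066). Irf4, whose level follows T cell receptor signal strength, rose in KD from 168 to 294 CPM (0.80, edgeR adjusted p 8.74e-09). Batf3 rose in KD as well, by 0.76. Both Irf4 and Batf3 were lower in Male than in Female, with -0.39 and -0.54. Fos, chosen after its values were seen, averaged 0.63 CPM in Female and 1.81 in Male, and 0.91 CPM in WT and 0.89 in KD.

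Genes tied to EGR and NFAT activity in restrained T cells were listed too. Of 12, 3 were called higher and 7 lower in Male, and 1 higher and 7 lower in KD, with medians of -0.12 and -0.13. Nab2, a corepressor that binds EGR proteins and is induced by them, averaged 61.3 CPM in Female and 41.4 in Male (log2 fold change -0.57). In KD it was at 40.6 CPM against 36.7 in WT, and did not pass the test (0.14, edgeR adjusted p 0.083). The diacylglycerol kinase gene Dgka, a brake on RAS activation, averaged 366 CPM in Female and 234 in Male (-0.64), and Cblb, a ubiquitin ligase gene of T cell tolerance, averaged 282 and 205 CPM (-0.46). Dgka and Cblb were lower in KD as well, with -0.14 and -0.23. The 1 gene of this list higher in KD was Nrn1, which encodes neuritin and rose from 1.37 to 5.33 CPM (1.96, edgeR adjusted p 3.80e-06). Between the sexes, Nrn1 was lower in Male (-1.43).

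Of 9 surface receptors tied to the TOX and NR4A programme, 4 were called higher and 4 lower in Male, and 1 higher and 7 lower in KD. Pdcd1, which encodes PD-1, was at 8.98 CPM in Male, 50.0% of the Female mean (edgeR adjusted p 3.08e-07), and at 25.8 CPM in WT and 17.7 in KD (log2 fold change -0.54). Cd244a had log2 fold changes of 1.70 for Male over Female and -1.45 for KD over WT. Each count of these lists stands beside the 49.8% and 35.1% of all genes called in the comparisons. The share was larger among genes whose log2 CPM averaged 1 or more, where 8849 of 12367 and 6680 of 12298 were called.

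Genes whose pattern was most like 3 of the factors were sought among protein-coding genes whose log2 CPM averaged 1 or more in both tables. The measure was the Pearson correlation of log2 CPM, centred on each table's mean, over the 12 samples. Nearest to Tox were Pip5k1a, Abca3 and Dgkd, with correlations of 0.992, 0.992 and 0.990. Nearest to Egr2 were Hnrnph1, Ncl and Spr, with 0.966, 0.960 and 0.960. Nearest to Nr4a1 were Supt6, Xrn1 and Rsbn1l, with 0.941, 0.918 and 0.914. The points share groups and libraries, and these are the highest values among 10200 or 10201 genes searched.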

How the data were processed

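The deposited files are 2 gene-level tables of unnormalized counts, one with the Female and Male samples and another with the electroporated ones. The submitters' processing notes name the build mm10 and the tools bcl2fastq 2.20.0, HISAT2, StringTie and DESeq2, without roles; annotation and strand setting are not given in the sources used here. Per the labels' protocols, libraries were stranded total RNA after depletion of ribosomal RNA. Symbols, positions and exon lengths came from GENCODE M21 (GRCm38), which matched 55227 identifiers and left 260 unmatched. The 10 genes shared at most 0.73% of their 31-base subsequences with transcripts of other genes. The genes and lists were chosen with earlier results of these data known.

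Both comparisons used edgeR 4.0.16 (R 4.3.3) on the 6 samples of their table, with TMM normalization, filterByExpr, the quasi-likelihood test and Benjamini-Hochberg adjustment over all genes tested. An SE is the size of a log2 fold change over the root of its F statistic, and 95% intervals are not adjusted for multiple tests. CPM used TMM-scaled library sizes, and log2 CPM a prior count of 2. On simulated counts with 200 genes changed by 1 log2 unit, 98.5% were recovered among 20208 genes of the Male and Female table and 99% among 20413 of the WT and KD table, and 3.90% and 1.49% of the calls were of unchanged genes. The simulation gave each gene the same spread and changed only genes above 1 CPM. Its rates do not carry over to smaller changes, lower levels or data where many more genes differ. Named genes are the 10 factors, from each list up to 4 called genes of lowest p per direction and comparison, the 3 nearest patterns of Nr4a1, Egr2 and Tox, and Kdm5d; not each is named. Alternatives were other size factors, filters and tests (DESeq2 1.42.0, limma-voom 3.58.1), all 12 samples in 1 fit, a replicate block, counts divided by 4, thinning to the smallest library, a fold threshold and leaving out each sample. The limit of 3 counts behind a 0 covers counting error only. Markers of 6 cell classes were listed to check the cells. Some genes of the lists are not reported here by name.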

Additional observations from a re-analysis of the deposited data

How the results depend on the processing

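Fold changes and counts of calls were refitted under up to 10 other settings and with each of 6 samples left out. Counts of separated groups were redone under 8 settings, which leave out the DESeq2 and limma-voom tests. Between 7 and 10 factors were tested, depending on the filter. For Male against Female 7 were called under each setting but 1, where log2 CPM had to average 1 or more and 6 of 7 tested were called, and 6 to 7 without 1 sample. For KD against WT it was 5 to 7 over the settings and 4 to 6 without 1 sample. Requiring in addition a log2 fold change of 1 or more, 1 was called in each comparison, Ikzf2 in the first and Egr3 in the second; fewer genes pass by construction. Counts for the 7 other lists stayed within 1.5 times the reported ones in each refit. Nr4a1 between Male and Female changed sign without 1 sample, with log2 fold changes from -0.015 to 0.074; the cause was not tested. Leaving out WT replicate 2 changed the call of Nr4a1, Tox and Ikzf2 in KD against WT, as given above. Egr2 and Egr3 in Male against Female had no value where log2 CPM had to average 1 or more, since they were then not tested. The sample titles number replicates 1 to 3 in each group, without saying that a number marks a shared mouse. With the replicate block, 7 and 5 factors were called, as without it, and 9740 and 6688 of all genes, against 10067 and 7171. Same-numbered samples did not deviate together: their mean correlation was -0.010 for Male with Female and -0.079 for KD with WT. Tox2, at no more than 14 counts in a library, was tested only with no low-count filter and was not called there. With counts divided by 4, Egr2 stayed called between the sexes and Egr3 uncalled (edgeR adjusted p 0.0079 and 0.408).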
